A study of Mus musculus with 8 samples.

Results

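The transcript response to retinoic acid (RA) was described in AML12 cells that carried no added receptor oncogene. AML12 is a line of cultured mouse hepatocytes, derived from the liver of a mouse transgenic for transforming growth factor alpha. The description rests on 4 arrays of the 8 in the study, chosen by their labels: AML12 cells given 1 µM RA for 3 h, AML12 cells given 1 µM RA for 24 h, and an untreated AML12 control titled with each time. The labels call the controls untreated and name no vehicle. The other 4 arrays hold the same treatments and times in AML12 cells transfected with v-erbA, a mutated thyroid hormone receptor of avian erythroblastosis virus, and the study set out to find RA-regulated genes that differ in its presence. Each combination of line, treatment and time was 1 array, so nothing was replicated. Whether the arrays came from separate cultures is not stated, and every p-value measures only the spread among these arrays. The array titled 24 h with RA has a description that reads 3 h; its title and treatment protocol were followed.

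RA is the acid form of vitamin A and enters the nucleus to bind retinoic acid receptors, which pair with retinoid X receptors on direct repeats of a short DNA motif. Cells that receive RA commonly raise the enzymes that remove it, among them the hydroxylases Cyp26a1 and Cyp26b1 and the retinal reductase Dhrs3, and the receptor gene Rarb is a textbook direct target. In liver, hepatocytes secrete the retinol carrier Rbp4, and RA acts beside bile acid, thyroid hormone and fatty acid receptors that share the same partner.

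The promoters of Rarb, Cyp26a1 and Nr0b2 are shown because the first pair carry the textbook receptor motif and the last belongs to the gene with the largest rise in these cells. The windows run from 250 bases before to 50 bases after the annotated start in RefSeq's mouse assembly GRCm38.p6. They lie at chr14:16575427-16575726 on the minus strand for Rarb, chr19:37697558-37697857 on the plus strand for Cyp26a1 and chr4:133553126-133553425 on the plus strand for Nr0b2. Capitals mark the direct repeat in Rarb (bases -53 to -37 from the start) and in Cyp26a1 (bases -32 to -16, read on the other strand), and the single copy of the motif in Nr0b2 (bases -143 to -138).
Rarb: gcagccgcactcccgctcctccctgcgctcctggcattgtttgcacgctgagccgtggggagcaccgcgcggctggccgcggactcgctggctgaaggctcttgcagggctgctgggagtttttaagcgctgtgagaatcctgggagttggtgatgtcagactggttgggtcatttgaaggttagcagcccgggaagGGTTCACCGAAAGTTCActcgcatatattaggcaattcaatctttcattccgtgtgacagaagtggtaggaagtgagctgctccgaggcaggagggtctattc
Cyp26a1: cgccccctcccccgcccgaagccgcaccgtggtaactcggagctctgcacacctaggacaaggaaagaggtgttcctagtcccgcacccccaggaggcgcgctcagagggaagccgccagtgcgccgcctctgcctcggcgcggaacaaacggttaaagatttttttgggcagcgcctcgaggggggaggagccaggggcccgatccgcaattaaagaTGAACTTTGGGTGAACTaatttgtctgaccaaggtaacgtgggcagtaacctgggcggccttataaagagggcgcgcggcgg
Nr0b2: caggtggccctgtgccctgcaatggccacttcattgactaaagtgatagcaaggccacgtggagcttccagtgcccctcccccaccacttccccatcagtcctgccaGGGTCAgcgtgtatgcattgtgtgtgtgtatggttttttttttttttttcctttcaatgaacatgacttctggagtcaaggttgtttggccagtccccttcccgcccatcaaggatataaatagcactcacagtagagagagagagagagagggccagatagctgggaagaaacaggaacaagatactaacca

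The motif searched was any pair of the 6-base units AGGTCA (the consensus) or its variants, written AGTTCA or else GGGTCA or else GGTTCA, in the same orientation, spaced by 1, 2 or 5 bases, on both strands. Of 32851 mouse promoters of this length, 0.0974% held the repeat spaced by 5, 0.268% the repeat spaced by 2 and 0.222% the repeat spaced by 1. The 35 promoters found for 20 of the 24 genes in the retinoid receptor and metabolism lists included 2 with the repeat spaced by 5 (5.71%). These are the Rarb and Cyp26a1 promoters printed above, which were shown because they carry it. Of the 35, 1 held the repeat spaced by 1 (2.86%) and 0 the repeat spaced by 2. Promoters were found for 25 of the 29 genes that rose with RA in AML12 cells, and 0 of their 27 windows held a repeat of any of these spacings. A match is a description of letters, and its absence says only that these letters are not in the window.

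The arrays report 1 signal intensity per probe set, and array medians lay between 71.2 and 76.1 units. Levels were taken as log2(signal + 19.9), which compresses ratios between low signals. Testing required a signal over 73.5 units, the median of all values, on 2 of the 8 arrays; this kept 11997 genes, each read by its brightest probe set. The labelled cell type was checked against its markers. In all, 8 of 8 defining hepatocyte markers measured exceeded the pooled median on all 4 AML12 arrays, their summed signal running from 30400 to 39612 units, highest on the untreated 24 h array. The 5 of 5 biliary and progenitor markers did so too, whereas 1 of 7 mesenchymal, 1 of 5 macrophage and 1 of 5 endothelial markers did. These panels are short. In the longer lists used below, 4 of 28 hepatocyte markers and 9 of 14 macrophage and endothelial markers were too dim to test. Apoa2 of the hepatocyte list read 61.4 and 55.5 units at 3 h. Cd14 of the macrophage and endothelial list read 3016 to 5265 units on the AML12 arrays. Across genes, levels correlated at r = 0.993 between RA and control at 3 h and at r = 0.985 at 24 h, and at 0.934 to 0.946 between arrays of different times. The 24 h RA array, whose description reads 3 h, stood at 0.944 and 0.946 with the 3 h arrays.

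Over both times together, RA moved few genes, and the movement was mostly upward. Of the 11997 genes tested, 36 changed in AML12 cells (0.3% of genes; limma, adjusted p under 0.05), 29 upward (0.242%) and 7 downward (0.0583%). All 36 went in the same direction at 3 h and at 24 h, and 13 of them by at least 2-fold on average, 11 upward and 2 downward. At an unadjusted p under 0.05 there were 1089 genes. Among the 36, the largest rises belonged to the nuclear receptor repressors Nr0b2 and Nrip1, and the largest falls to the lipid-degrading enzymes Hpgd and Mgll. The plot of the 3 h against the 24 h ratios shows how far these genes lie from the rest.

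**Figure D1:**
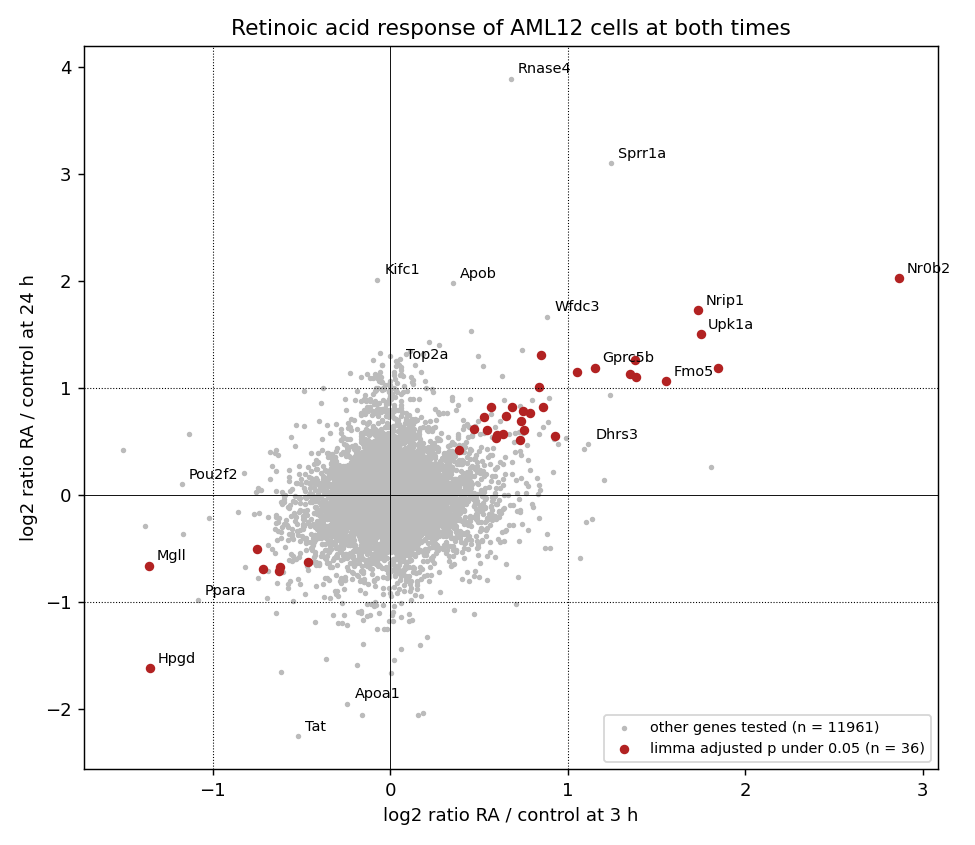
Log2 ratio of RA to control in AML12 cells for each of 11997 genes, at 3 h on the x axis and at 24 h on the y axis; each point is 1 gene and 1 pair of arrays per axis, red marks the 36 genes past the threshold and dotted lines mark 2-fold. The red genes lie along the diagonal, with Nr0b2 at 2.87 and 2.02, and the fit favours genes with like ratios at both times. Apoa1, Tat, Apob and Rnase4 lie far from 0 mainly at 24 h.

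Nr0b2 encodes SHP, an orphan nuclear receptor without a DNA-binding domain that holds down bile acid synthesis. Its signal was 108 units in the control and 916 with RA at 3 h, and 181 in the control and 798 with RA at 24 h. Both RA arrays stood above both controls, and the mean log2 change of the 2 pairs was 2.45 ± 0.18 (limma adjusted p = 0.00367), or 5.45-fold. Here and below, ± gives the SE of the limma fit over all 8 arrays, those of the v-erbA line included. It is not the spread of the 2 AML12 pairs, which gave log2 ratios of 2.87 and 2.02 for Nr0b2. Nrip1 encodes RIP140, a corepressor that ligand-bound nuclear receptors recruit. Its signal was 333 and 1155 units without and with RA at 3 h, and 293 and 1014 at 24 h. The groups did not overlap, and the mean log2 change was 1.73 ± 0.17 (limma adjusted p = 0.0124), with ratios of 1.74 and 1.73 at the 2 times. Of 4 further bright Nrip1 probe sets, 3 gave log2 ratios of 1.46, 1.69 and 1.83 at 3 h and 0.42, 2.01 and 1.86 at 24 h, and the other gave -0.02 and -0.15.

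Among the other strong rises was Fmo5, a flavin-containing monooxygenase of liver, with 275 and 844 units at 3 h and 582 and 1237 at 24 h (log2 change 1.31 ± 0.13, limma adjusted p = 0.0124). Both controls lay below both RA arrays, although the 24 h control was the brighter control. Gprc5b, an orphan receptor of a family first named for induction by RA, read 428 and 977 units at 3 h and 349 and 821 at 24 h. Its change of 1.17 ± 0.13 (limma adjusted p = 0.0171) corresponds to 2.22-fold and 2.28-fold at the 2 times; its further bright probe set gave log2 ratios of 0.78 and 2.69. Epn2, an endocytic adaptor of the epsin family, read 268 and 577 units at 3 h and 284 and 653 at 24 h (log2 change 1.10 ± 0.08, limma adjusted p = 0.00367). Flrt3, a leucine-rich repeat membrane protein linked to FGF signalling and axon guidance, read 195 and 528 units at 3 h and 110 and 264 at 24 h (1.24 ± 0.16, limma adjusted p = 0.0291). In each of these 4 genes both RA arrays were brighter than both controls. Genes past the threshold were selected for a consistent difference with RA, so such separation is largely built in, here and elsewhere. Its share over all genes is not given here, and it adds no evidence to the test.

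Some rises started from signals at or below the pooled median, so that only a bound can be given. Slc51b, the beta subunit of the basolateral bile acid exporter, read 73.3 and 223 units at 3 h and 63.5 and 180 at 24 h, at least 2.36-fold higher with RA (limma adjusted p = 0.0124). Upk1a, a uroplakin of the urothelial surface, read 9.96 and 80.5 units at 3 h and 21.0 and 96.1 at 24 h, at least 1.16-fold higher (limma adjusted p = 0.0390). Ptgfr, the receptor of prostaglandin F2 alpha, read 57.4 and 119 units at 3 h and 38.3 and 124 at 24 h, at least 1.51-fold higher (limma adjusted p = 0.0429). All their RA arrays were brighter than all their controls. Zfr2, a zinc finger RNA-binding protein, passed the test with 4.88 and 69.2 units at 3 h and 19.4 and 69.4 at 24 h, but no AML12 array reached the pooled median and no fold is given. Its other probe set was dim and did not follow.

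Apart from Ivl, which is described below, the remaining 18 rises ran from a log2 change of 0.40 to one of 0.92. Osgin1, an oxidative stress-induced growth inhibitor, changed by 0.92 ± 0.14, Synpo, an actin-associated protein, by 0.84 ± 0.11, and the sulfate transporter Slc26a2 by 0.77 ± 0.09. The others were Pitpnc1, Otud1, Fstl3, Nabp1, Chd1l, Acot2, Slfn2, Ets1, Rab20, Aspa, Man1a2, Smad3, Aldh3a2, Tfrc and Acot1. Aldh3a2, a fatty aldehyde dehydrogenase, read 1425 and 2165 units at 3 h and 1717 and 2497 at 24 h. Tfrc, the transferrin receptor that takes up iron, read 1571 and 2187 units at 3 h and 1434 and 2206 at 24 h. Ets1, a transcription factor, read 1143 and 1658 units at 3 h and 1105 and 1843 at 24 h. These 3 genes were bright on every array, and RA and control arrays did not overlap.

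Hpgd encodes 15-hydroxyprostaglandin dehydrogenase, the enzyme that inactivates prostaglandins. Its signal was 368 units in the control and 132 with RA at 3 h, and 325 and 92.3 at 24 h, the largest fall (log2 change -1.49 ± 0.15, limma adjusted p = 0.0137). Mgll encodes monoacylglycerol lipase, which splits monoacylglycerols and the endocannabinoid 2-arachidonoylglycerol. It read 814 and 305 units at 3 h and 642 and 400 at 24 h (-1.01 ± 0.14, limma adjusted p = 0.0345). Both controls lay above both RA arrays for these enzymes, but the further probe sets of both genes were dim on every AML12 array and did not show the fall. With the mean of all probe sets per gene, Hpgd gave -0.70 (limma adjusted p = 0.344) and Mgll -0.24 (limma adjusted p = 0.573).

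The other falls were smaller, and 4 of the 5 genes had bright further probe sets with the same sign. Zbtb16, a zinc finger repressor known as a fusion partner of the RA receptor alpha gene in leukaemia, read 950 and 556 units at 3 h and 2630 and 1846 at 24 h (log2 change -0.63 ± 0.08). It fell within each time, while both 24 h arrays were brighter than both 3 h arrays. Rnd3, a regulator of the actin cytoskeleton, read 439 and 279 units at 3 h and 444 and 271 at 24 h (-0.65 ± 0.09). Tox, an HMG-box nuclear factor, read 516 and 327 units at 3 h and 521 and 310 at 24 h (-0.67 ± 0.10). Ccn4 and Bambi are described with their pathways below.

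**Figure D2:**
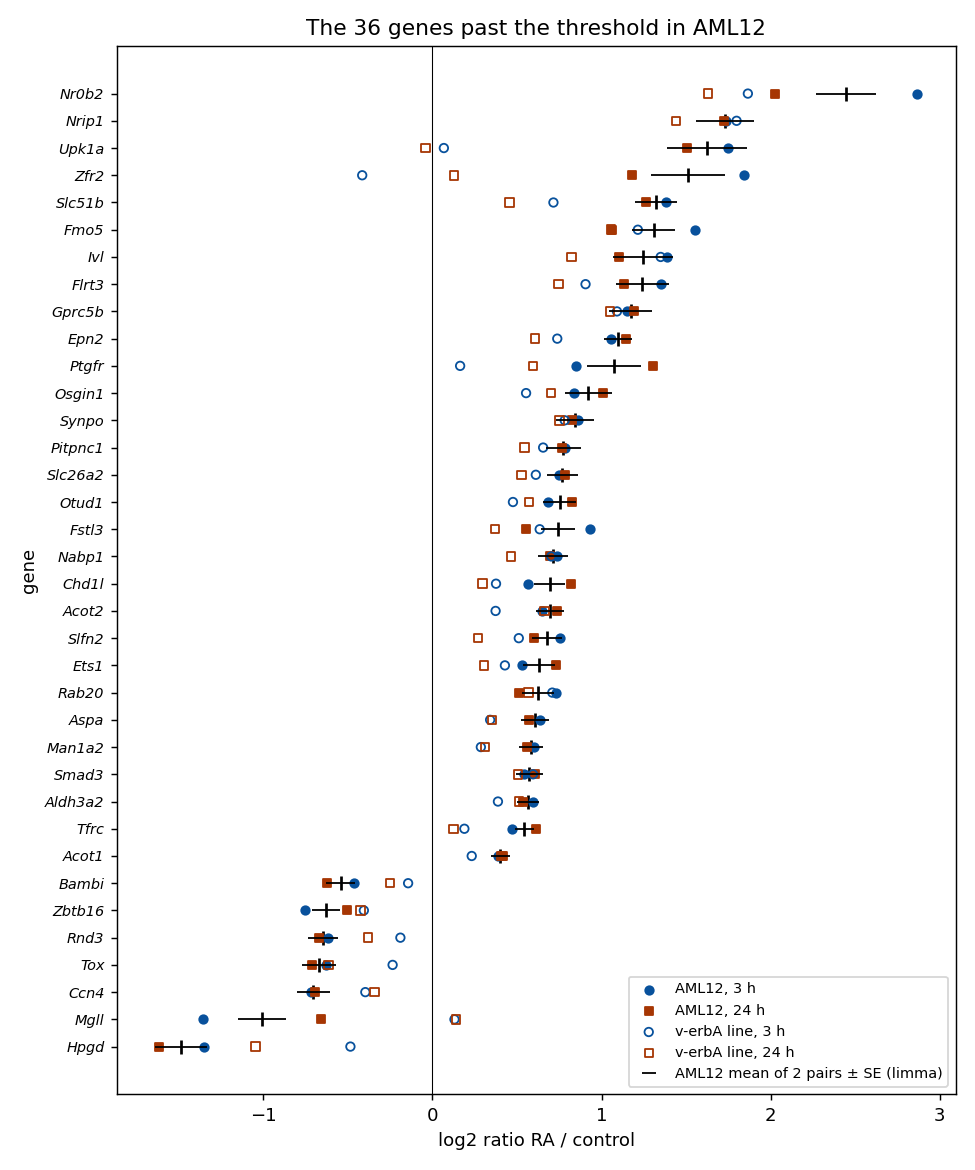
Log2 ratio of RA to control for the 36 genes past the threshold in AML12 cells; filled symbols are the AML12 pairs at 3 h (circles) and 24 h (squares), open symbols the pairs of the v-erbA line, and black bars the AML12 mean ± SE of the limma fit. The 29 rises and 7 falls keep their sign at both times in AML12 cells, which the fit favours. The untreated arrays of Upk1a, Ptgfr, Slc51b and Zfr2 were below the pooled median, so their ratios depend on the offset.

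Of the 36 genes, 23 had further probe sets, 42 of which exceeded the pooled median on an AML12 array; 38 of these had the same sign and 33 reached at least 50% of the size. The count of 36 rests on a spread borrowed across genes with 3 residual degrees of freedom. Without the mean-variance trend 2 genes passed, and with the mean of all probe sets per gene 11 passed. It also rests on single arrays: 5 genes passed without the 3 h RA array, 8 without the 24 h RA array, 8 without the 24 h control and 246 without the 3 h control. Without either untreated v-erbA array 16 passed. Epn2 passed in 17 of the 18 alternative settings with 1 value per gene, Nr0b2 in 16, and Fmo5, Nrip1 and Slc51b in 15 each, whereas Rab20 passed in 5.

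None of the tested genes that bind or handle RA passed the threshold in AML12 cells, although Rarb and Dhrs3 were at least 2-fold higher on the log2 scale at 3 h and Bco1 at least 2-fold lower at 24 h. Of the 6 genes for RA and retinoid X receptors, 5 were tested and 0 passed (median log2 change 0.06, against 0.01 over all genes tested). Rarb read 23.6 units in the control and 82.7 with RA at 3 h, and 24.2 and 64.2 at 24 h (limma adjusted p = 0.168). Both RA arrays lay above both controls, but 3 of the 4 signals were under the pooled median, so at 3 h the ratio was at least 1.10-fold and none is given at 24 h. Rxra, the partner receptor most abundant in liver, read 494 and 394 units at 3 h and 608 and 482 at 24 h (-0.32 ± 0.08, limma adjusted p = 0.221). Rxrb read 612 and 641 units at 3 h and 655 and 683 at 24 h, and Rxrg 74.0 and 101 units at 3 h and 105 and 102 at 24 h. Rarg read 283 and 329 units at 3 h but 66.3 and 54.7 at 24 h, and Rara was dim on all 4 arrays, from 60.5 to 71.3 units.

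Of 18 genes of retinoid metabolism and binding, 10 were tested, 5 were dim and 3 were not analysed here; 0 of the 10 passed, and their median log2 change was 0.14. Dhrs3, which returns retinal to retinol, read 530 units in the control and 1171 with RA at 3 h, and 953 and 1331 at 24 h. It was higher with RA at each time, by 2.17-fold and 1.39-fold, and missed the threshold (0.79 ± 0.14, limma adjusted p = 0.0766). The RA hydroxylase Cyp26b1 read 85.0 and 117 units at 3 h and 88.9 and 137 at 24 h (0.45 ± 0.13, limma adjusted p = 0.307). Cyp26a1, whose promoter repeat is printed above, read 40.8 and 67.1 units at 3 h and 61.6 and 81.8 at 24 h (limma adjusted p = 0.452). For both hydroxylases the RA arrays were the brighter at each time, at signals close to the pooled median.

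Rdh10, the retinol dehydrogenase that makes retinal, read 264 and 351 units at 3 h and 233 and 318 at 24 h (0.40 ± 0.10, limma adjusted p = 0.208). Bco1, which cleaves beta-carotene to retinal, read 591 and 487 units at 3 h and 806 and 390 at 24 h (limma adjusted p = 0.229), a 24 h ratio of 2.01-fold lower. The carriers and synthesising enzymes with strong signal were near level: Rbp4 ran from 5444 to 7413 units, Aldh1a1 from 8793 to 9742, Retsat from 720 to 1067 and Rdh11 from 289 to 349, with RA and control overlapping. Crabp2, which carries RA to the nucleus, read 147 and 162 units at 3 h and 7.58 and 17.2 at 24 h. Lrat, Crabp1, Stra6, Aldh1a2 and Aldh1a3 were below the pooled median on all arrays.

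A list of 32 known RA targets had 17 members tested. Of these 2 rose, Nrip1 and Gprc5b, and 0 fell, and the list median was 0.19. Over all genes tested 0.242% rose and 0.0583% fell, the shares to set beside this list and those below. Sox9, a transcription factor of biliary and progenitor cells, read 711 and 1193 units at 3 h and 1312 and 1752 at 24 h (0.57 ± 0.10, limma adjusted p = 0.0749). Pdk4, the kinase that restrains pyruvate use, read 136 and 211 units at 3 h and 190 and 335 at 24 h (0.66 ± 0.13, limma adjusted p = 0.0894). Both were higher with RA at each time and missed the threshold. The plot of single array signals sets these genes beside the strongest responders.

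**Figure D3:**
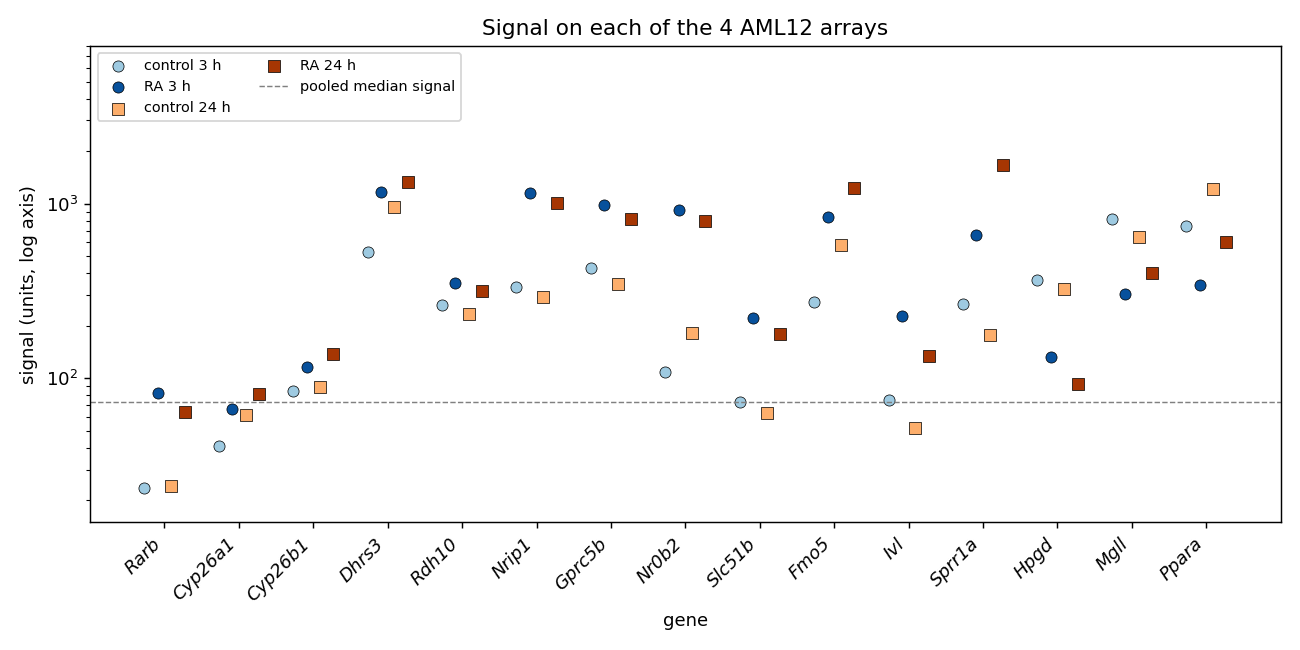
Signal in units on a log axis for 15 genes on each of the 4 AML12 arrays; pale symbols are controls, dark symbols RA, circles 3 h and squares 24 h, and the dashed line is the pooled median of 73.5 units. Nr0b2, Nrip1 and Gprc5b are separated from their controls by a wide margin, while Rarb and Cyp26a1 stay near or below the dashed line.

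In the bile acid list of 20 genes, 17 were tested and 2 rose, Nr0b2 and Slc51b; 0 fell, and the list median was -0.01. Klb, the co-receptor through which FGF15 acts on liver, read 392 and 666 units at 3 h and 430 and 483 at 24 h (0.45 ± 0.13, limma adjusted p = 0.332). Baat, which joins bile acids to taurine, read 83.3 and 73.2 units at 3 h and 206 and 111 at 24 h. Neither passed; the RA arrays of Klb were above its controls, and those of Baat overlapped with its controls.

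Cornified envelope and squamous genes belong to skin and other surface epithelia, and 2 of the 10 tested of 21 listed rose, Ivl and Upk1a (list median 0.17). Ivl encodes involucrin, a precursor of the cornified envelope, and read 75.1 and 228 units at 3 h and 52.0 and 135 at 24 h (1.24 ± 0.18, limma adjusted p = 0.0345). Sprr1a, a small proline-rich protein cross-linked into the same envelope, read 268 and 661 units at 3 h and 178 and 1673 at 24 h. Its 2 ratios, 2.37-fold and 8.56-fold, differed so much that the mean missed the threshold (limma adjusted p = 0.127). Cnfn, a cornified envelope protein too, went the other way without passing, 153 and 87.2 units at 3 h and 151 and 84.5 at 24 h (-0.70 ± 0.16, limma adjusted p = 0.147).

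Among 26 fatty acid oxidation genes and targets of PPAR alpha, the lipid-sensing receptor, 20 were tested and 2 rose, Acot2 and Acot1, thioesterases that free fatty acids from coenzyme A (list median -0.03). Acot2 read 572 and 909 units at 3 h and 719 and 1210 at 24 h (0.69 ± 0.08, limma adjusted p = 0.0247). Acot1 was brighter and moved less, 2894 and 3792 units at 3 h and 3246 and 4338 at 24 h (0.40 ± 0.05, limma adjusted p = 0.0313). Acot3 read 218 and 431 units at 3 h and 337 and 493 at 24 h (0.72 ± 0.13, limma adjusted p = 0.0766). These 3 thioesterases are close paralogs, and how far their probes cross-react was not tested.

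Ppara itself read 750 and 343 units at 3 h and 1219 and 607 at 24 h. It was 2.12-fold and 1.98-fold lower with RA, just short of the threshold (-1.03 ± 0.16, limma adjusted p = 0.0530), and 1 further bright probe set gave -0.97 at 3 h and the other -0.24. Ppargc1b, a coactivator of mitochondrial genes, read 191 and 99.9 units at 3 h and 185 and 108 at 24 h (limma adjusted p = 0.115). In the list of 16 prostaglandin and monoacylglycerol genes, 9 were tested, 2 fell, Hpgd and Mgll, and 0 rose (list median -0.13). The prostaglandin transporter Slco2a1 read 2248 and 2180 units at 3 h but 3134 and 1528 at 24 h (limma adjusted p = 0.551).

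In TGF-beta and BMP signalling, 20 of 26 genes were tested, 1 rose and 1 fell (list median 0.01). Smad3, which carries the TGF-beta signal to the nucleus, read 802 and 1178 units at 3 h and 917 and 1403 at 24 h (0.57 ± 0.08, limma adjusted p = 0.0375). Bambi, a decoy receptor that damps TGF-beta and BMP signals, read 1335 and 963 units at 3 h and 1284 and 827 at 24 h (-0.54 ± 0.08, limma adjusted p = 0.0468). In both genes RA and control arrays did not overlap. Fstl3, a secreted activin inhibitor outside these counts, read 996 and 1915 units at 3 h and 1229 and 1816 at 24 h (0.74 ± 0.10, limma adjusted p = 0.0313). Bmp4 read 319 and 234 units at 3 h and 582 and 314 at 24 h (-0.63 ± 0.13, limma adjusted p = 0.0941).

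Of 20 Wnt genes 10 were tested and 1 fell, Ccn4, a matricellular protein induced by Wnt, with 422 and 249 units at 3 h and 246 and 145 at 24 h (-0.70 ± 0.10, limma adjusted p = 0.0313; list median -0.04). Of 24 guidance and adhesion genes 19 were tested, Flrt3 rose and Rnd3 fell (list median 0.07). Sema6d, a membrane semaphorin, read 257 and 145 units at 3 h and 228 and 125 at 24 h (-0.76 ± 0.13, limma adjusted p = 0.0663). Of 25 xenobiotic and antioxidant genes 16 were tested and 1 rose, Fmo5 (list median 0.04). Cyp3a11, a drug-metabolising cytochrome, read 355 and 361 units at 3 h and 867 and 285 at 24 h.

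In the other 19 lists 0 members passed in either direction. Over all 28 lists 16 of the 418 distinct genes tested passed, against 0.3% of all genes tested. The lists were chosen with earlier results of these data known, so this count is a description only. The medians of 20 lists lay within 0.1 of 0. Among growth factor feedback genes Rgs2, which turns off G-protein signals, read 2883 and 1967 units at 3 h and 3118 and 1556 at 24 h (-0.77 ± 0.14, limma adjusted p = 0.0766), and the growth factor receptor Egfr read 1156 and 895 and then 1349 and 1014 (-0.38 ± 0.06, limma adjusted p = 0.0527). In the p53 and apoptosis list the survival factor Bcl2 read 300 and 425 units at 3 h and 368 and 585 at 24 h (limma adjusted p = 0.0928), and the death factor Pmaip1 1106 and 779 and then 1456 and 1111 (limma adjusted p = 0.0708). These 4 genes were ordered alike at both times, and each missed the threshold. They were named for large mean changes within their lists, as were Sox9 and Pdk4 above, which favours like directions at both times. The share of all genes ordered alike is not given here.

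In lipid synthesis, Scd1, the stearoyl desaturase, read 1388 and 1686 units at 3 h and 1662 and 2831 at 24 h (limma adjusted p = 0.575). Lss of the cholesterol pathway read 512 and 475 units at 3 h and 548 and 444 at 24 h, and the 16 tested genes of that pathway had changes between -0.20 and 0.12. Inflammatory and interferon lists had medians of -0.06 and -0.02, with Cebpd, a transcription factor of the acute phase, at 540 and 340 units at 3 h and 656 and 486 at 24 h (limma adjusted p = 0.0766). ER stress genes ran from -0.10 to 0.23. The plot of list medians shows that the hepatocyte and cell cycle lists at 24 h lay farthest from 0.

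**Figure D4:**
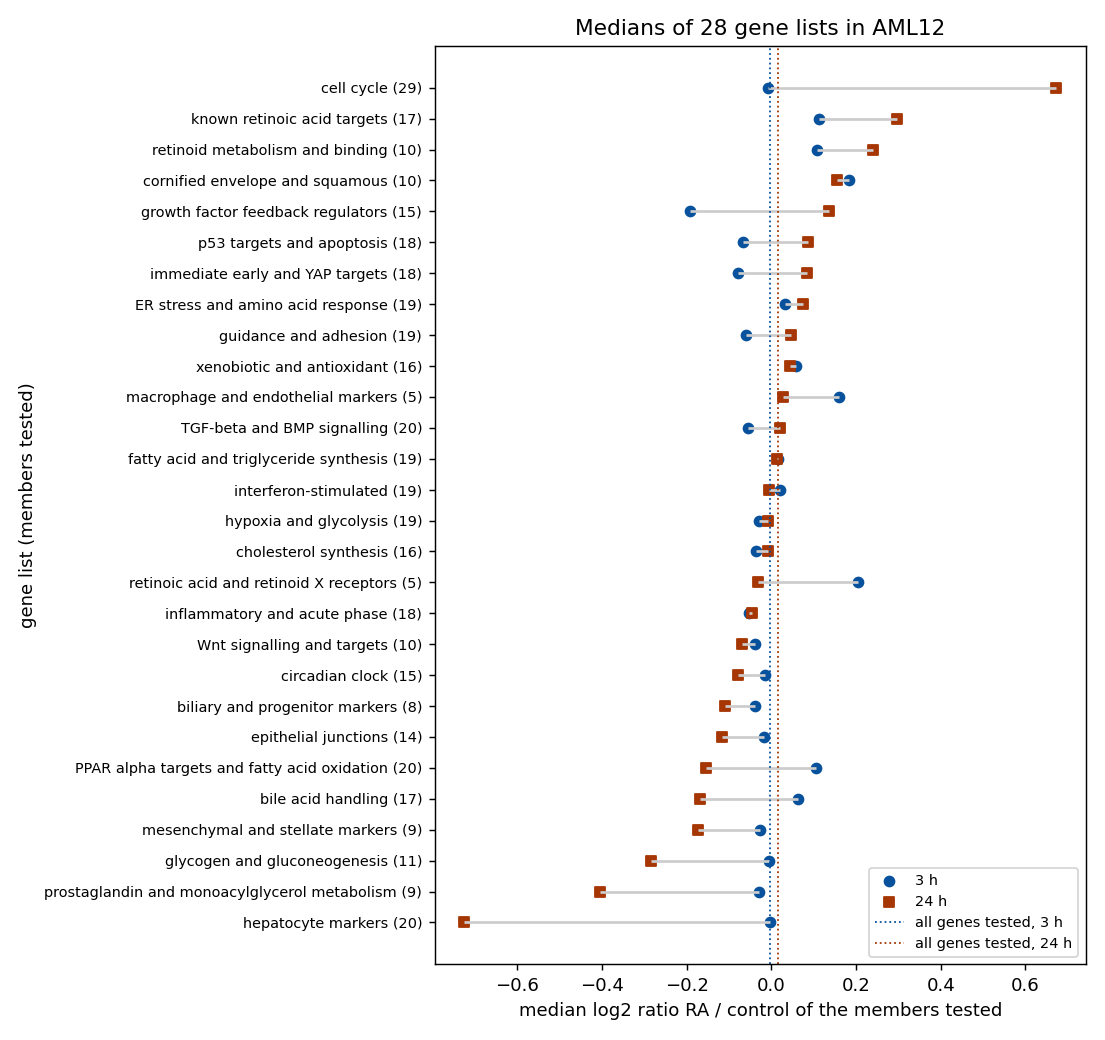
Median log2 ratio of RA to control over the tested members of 28 gene lists in AML12 cells at 3 h (circles) and 24 h (squares), 1 pair of arrays per time; the number of members tested is in parentheses and dotted lines give the medians of all genes tested. At 3 h the medians lie between -0.19 and 0.20, and at 24 h hepatocyte markers lie at -0.72 and cell cycle genes at 0.67.

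At 3 h alone, 22 of 11127 genes with signal differed by at least 2-fold between the pair of arrays (0.198%), 15 higher with RA (0.135%) and 7 lower (0.0629%). With 1 array per arm there is no test of a single pair. The 10 highest ratios belonged to Nr0b2, Upk1a, Nrip1, Fmo5, Ivl, Slc51b, Flrt3, Sprr1a, Rarb and Gprc5b, led by Nr0b2 at 7.30-fold. Of the 10 lowest ratios Hpgd, Mgll, Ppara and Ppargc1b were described above. Klf4, a Krüppel-like transcription factor, read 129 and 67.6 units, and Hspa12a, a distant HSP70 relative, 1469 and 822.

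The other low ratios at 3 h could not be followed to 24 h for lack of signal. Pou2f2, a lymphoid octamer factor, read 1193 and 517 units at 3 h and 66.6 and 72.8 at 24 h, and Boll, a germ cell RNA-binding protein, read 517 and 219 and then 28.2 and 17.4. Sla2 read 81.2 and 26.0 units and then 36.9 and 64.3, and 1110017D15Rik 133 and 34.0 units at 3 h. All 4 were under the pooled median on both 24 h arrays. For 15 further bright probe sets of 7 of the 22 genes, 14 had the same sign and 12 at least 50% of the size.

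At 24 h, 122 of 11314 genes differed by at least 2-fold (1.08%), 71 higher (0.628%) and 51 lower (0.451%); with arrays centred on their medians the split was 91 to 42. The 2 times shared 11 genes, 11 of the 22 at 3 h and 9.02% of those at 24 h: Epn2, Flrt3, Fmo5, Gprc5b, Ivl, Nr0b2, Nrip1, Slc51b, Sprr1a and Upk1a higher, and Hpgd lower. The SD of the log2 ratios over the 11997 genes tested was 0.195 at 3 h and 0.282 at 24 h, against 0.154 and 0.184 in the v-erbA line. Across the 11997 genes, which are not independent replicates, the ratios at the 2 times correlated at r = 0.150.

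The 10 lowest ratios at 24 h began with Tat and ended with Cyp3a11. Apoa1, which forms the core of high-density lipoprotein particles, read 2682 and 2264 units at 3 h and 7093 and 1823 at 24 h, 3.86-fold lower with RA at 24 h, and 3 further probe sets gave log2 ratios of -1.92 to -2.25. Tat, an amino acid-degrading enzyme induced by glucocorticoids, read 179 and 119 units at 3 h and 374 and 62.6 at 24 h, at least 4.21-fold lower. Bhmt, a methyl transfer enzyme, read 221 and 249 units and then 801 and 178. Serpina1c, Ahsg, Itih3 and C4bp, all plasma proteins, were 4.16-fold, 4.11-fold, 3.17-fold and 3.00-fold lower, and Ppp1r3c, Hpgd and Cyp3a11 completed the 10 lowest. In all of these but Hpgd the untreated 24 h array had the highest signal of the 4.

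The 10 highest ratios at 24 h were more mixed. Rnase4, a secreted ribonuclease, read 79.0 and 138 units at 3 h and 8.07 and 395 at 24 h, at least 4.44-fold higher, and Sprr1a followed. Apob, the protein of very low-density lipoprotein, read 927 and 1189 units and then 567 and 2294, the only hepatocyte marker at least 2-fold higher. Its further probe set was under the pooled median on both 24 h arrays and did not follow. Kifc1 and Cenpe, motors of the mitotic spindle, read 34.9 and 201 units and 61.6 and 200.2 at 24 h, against 126 and 119 and 268 and 314 at 3 h. Csn3, a casein, and Wfdc3, a whey acidic protein-type inhibitor, were 2.89-fold and 3.18-fold higher.

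Of 28 hepatocyte markers 20 were tested and 0 passed over both times (limma, with 1089 genes of all at unadjusted p under 0.05). Their median log2 ratio was 0.00 at 3 h and -0.72 at 24 h. At 24 h 7 were at least 2-fold lower (0.451% of all genes with signal) and 1 higher (0.628%). Of 30 cell cycle genes 29 were tested and 0 passed, and the medians were -0.01 at 3 h and 0.67 at 24 h. At 24 h 4 genes were at least 2-fold higher (0.628% of all genes with signal), Top2a, Bub1, Mki67 and Plk1. Many further genes of mitosis and DNA replication outside this list were at least 2-fold higher too, among them Tacc3, Cdca8, Nek2, Cenpf, Tpx2, Pola1 and Lig1. Bright further probe sets of Tacc3, Nek2 and Cdca8 gave log2 ratios of 1.03, 1.03 and 1.09 to 1.33. Those of Cenpf and Tpx2 did not follow, at -0.16 and -0.34 to 0.10. Top2a, the topoisomerase of dividing cells, read 1612 and 1669 units at 3 h and 654 and 1547 at 24 h, and its further bright probe set gave a log2 ratio of 0.33 where the chosen one gave 1.22. Mki67, a proliferation marker, read 1932 and 1847 units and then 714 and 1572. In bulk samples, fewer cells of a kind and less RNA per cell cannot be told apart.

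The plot of the list levels shows on which arrays these lists stood apart. The untreated 24 h array had the highest level of the 4 AML12 arrays for 15 of the 20 hepatocyte markers (29.7% of all genes) and the lowest for 25 of the 29 cell cycle genes (31.2% of all genes). Between the untreated arrays the hepatocyte list was higher at 24 h than at 3 h by a median of 1.02 and the cell cycle list differed by -0.83, while between the RA arrays the medians were -0.02 and -0.18. The median mean effect was -0.33 for hepatocyte markers and 0.33 for cell cycle genes. It was -0.04 and 0.11 without the untreated 24 h array and -0.16 and 0.11 without the RA 24 h array, either of which breaks the 24 h pair. The 24 h array that remains still enters the estimate, adjusted by a time term taken partly from the v-erbA line. Without the 3 h control it was -0.64 and 0.53, and without the 3 h RA array -0.54 and 0.60. In the v-erbA line at 24 h the medians were -0.14 and 0.10. The genes at least 2-fold apart at 24 h were selected for the difference between these arrays, so an extreme level on one or both is built in and the following counts are a description. Of the 71 genes higher at 24 h, 63 had their lowest level on the untreated 24 h array and 26 their highest on the RA array; of the 51 lower, 48 had their highest level on the untreated array and 34 their lowest on the RA array.

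**Figure D5:**
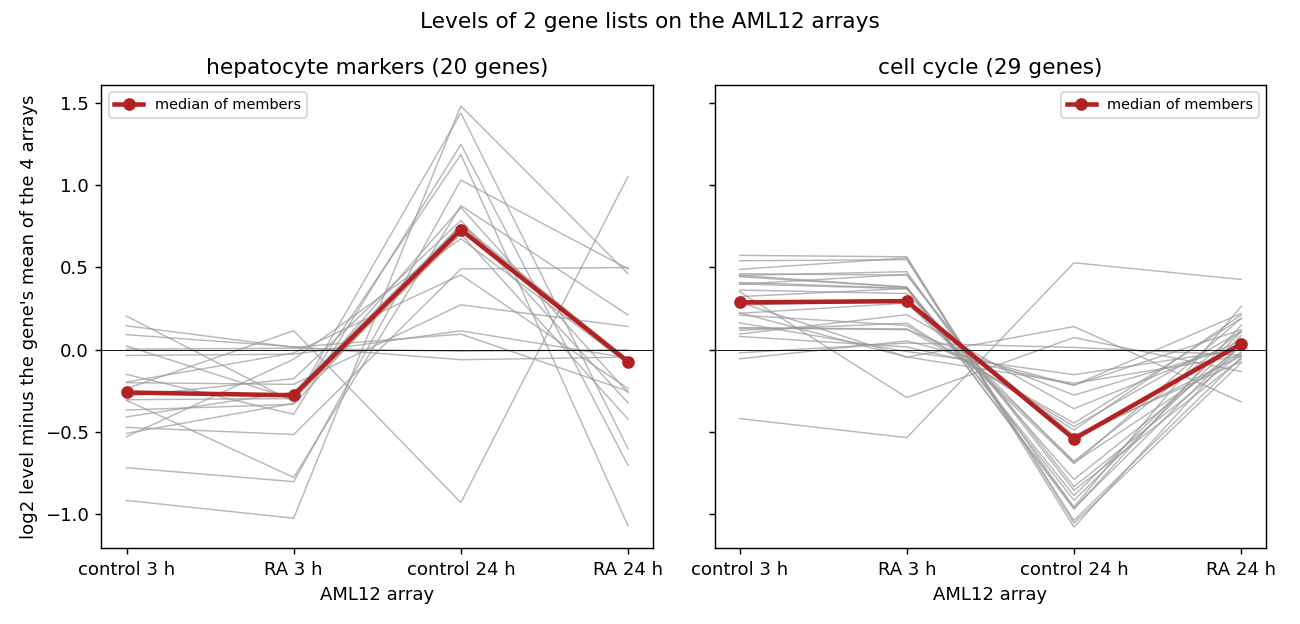
Log2 level minus the gene's own mean over the 4 AML12 arrays, for 20 hepatocyte markers (left) and 29 cell cycle genes (right); grey lines are genes and the red line is their median. The 24 h control stands above the other arrays for hepatocyte markers and below them for cell cycle genes, while both 3 h arrays lie together.

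In the line with v-erbA, measured on 4 other arrays, most of the 36 genes had ratios of the same sign. This held at both times for 33 of the 36, against 33.6% of all genes. Disagreement between the pairs of the v-erbA line counts as spread in the fit that picked the 36, so this count is not independent support. In 35 of the 36 the mean ratio was smaller in the v-erbA line. Since the genes were chosen for their size in AML12 cells, that count is a description only. The median size was 0.75 in AML12 cells and 0.51 in the other line. Nrip1 gave log2 ratios of 1.80 and 1.44 at 3 h and 24 h in the v-erbA line, Gprc5b 1.09 and 1.05, and Fmo5 1.21 and 1.06. Slc51b gave 0.72 and 0.46 there.

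The test of the difference between the lines passed for 0 genes (0%; limma, 199 genes at unadjusted p under 0.05, the smallest adjusted p 1.00). The 5 smallest p-values belonged to Mgll, Zfr2, Upk1a, Tfrc and Fv1. Without the 3 h RA array of AML12 cells 2 genes passed. Mgll had log2 ratios of -1.36 and -0.66 in AML12 cells and 0.13 and 0.14 in the v-erbA line, a difference of -1.14 ± 0.20. Upk1a, dim without RA in AML12 cells, gave 0.07 and -0.04 in the v-erbA line. Tfrc, bright on all arrays, differed by 0.39. No response can therefore be called particular to cells without v-erbA.

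The test of 24 h against 3 h, over both lines, passed for 2 genes (0.0167%; limma, 912 at unadjusted p under 0.05), Sprr1a and Rnase4. Sprr1a was 1.89 log2 units more responsive at 24 h, with AML12 ratios of 1.24 and 3.10 and v-erbA ratios of 0.86 and 2.80. Rnase4 differed by 3.49, with 0.68 and 3.89 in AML12 cells and 0.69 and 4.46 in the other line. Without single arrays this count ran from 0 to 102: it was 0 without either 3 h control or the 3 h RA array of the v-erbA line, 1 without either AML12 RA array, 17 without the 24 h RA array of the v-erbA line and 102 without its untreated 24 h array.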

How the data were processed

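Total RNA was hybridised to 8 Affymetrix mouse arrays, 1 per combination of line, treatment and time, per the labels. The authors deposited a linear signal intensity for every probe set on each array; how the authors summarised and scaled probes is not given in the sources used here, and the deposited scaling was kept. Of 45037 probe sets, 1 had no value on the 24 h arrays and was left out. The platform annotation named 1 gene for 34944, several for 932 and none for 9160; only the first kind was used. Gene identifiers of 34740 were found in RefSeq's GRCm38.p6 table. The probe set with the highest mean log2 level stood for the gene (18192 genes, 9010 with more than 1 probe set).

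The offset of 19.9 units is the 20th percentile of all values. The 6195 dim genes were not tested. limma 3.58.1 in R 4.3.3 was fitted over all 8 arrays with line, treatment, time and line by treatment terms (a treatment by time term for the test of times), with a mean-variance trend and Benjamini-Hochberg adjustment over 11997 genes; the RA effect in AML12 cells is the mean of its 2 pairs. The fit of the RA effect was run on simulated data with known changes set in AML12 cells only, and its outcome is not reported here. The tests between lines and between times were not simulated. Where the arrays of the lower group lay under the pooled median, the higher group is set against that median as a bound. Figures used matplotlib 3.10.9 in Python 3.11.15. The number of arrays limits the precision.

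Genes named are the 15 largest rises and falls among those past the threshold and every other gene past it, the 10 largest of each pair, genes at least 2-fold at both times, the 5 smallest p-values of a test with no call, all retinoid genes, and up to 4 per list. The arrays described and the 28 lists (570 genes) were chosen with earlier results of these data known. Alternatives changed the offset, the filter, the centring, the probe set rule, the model and the arrays used.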

Additional observations from a re-analysis of the deposited data

Results flagged for a closer look

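Sprr1a and Rnase4 passed the limma test of the difference between times over both lines. The RA response of Sprr1a was 1.89 log2 units larger at 24 h than at 3 h (adjusted p = 0.0237), and that of Rnase4 was 3.49 larger. The untreated 24 h signal of Rnase4 in AML12 cells was 8.07 units, far under the pooled median, so its size depends on the offset. For Mgll the AML12 pairs moved down and the v-erbA pairs up, a difference of -1.14; limma gave an adjusted p of 1.00 for it. Hspa12a was lower with RA at 3 h and higher at 24 h in both lines (24 h minus 3 h 0.69), and Ahsg was higher at 3 h and lower at 24 h in both lines (-1.84); for these the difference did not pass limma's test of times.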

How the results depend on the processing

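With every probe set as a feature, 79 probe sets of 63 genes passed for RA in AML12 cells (54 probe sets up, 25 down). The count of 36 genes was 11 with the mean of probe sets and 86 with the AML12 arrays alone. It was 596 with all 2-way interactions and 2 without the trend. The fits on AML12 arrays alone and with all 2-way interactions have fewer residual degrees of freedom. The fit with all 2-way interactions also takes out line by time and treatment by time differences, which the main fit counts as spread. Leaving out 1 array gave 5 to 246, of which 2 to 33 were among the 36. With offsets of 50 and 100, no filter, a strict filter, median centring or quantile normalization it was 29 to 48. The difference between lines gave 0 to 2 genes without single arrays. The difference between times gave 1 gene with quantile normalization, 0 without the trend and 0 to 102 without single arrays. The count of genes at least 2-fold at 3 h was 10 with an offset of 100, 11 with all arrays above the median and 11 with the mean of probe sets. At 24 h it was 73 and 40 with offsets of 50 and 100 and 79 with all arrays above the median. With every probe set as a feature, 40 probe sets at 3 h and 203 at 24 h were at least 2-fold apart. Thresholds of 1.5-fold and 3-fold gave 155 and 3 genes at 3 h and 537 and 16 at 24 h. Over the 36 genes and these settings, every probe set as a feature left out, the direction held each time a value was given. Where only the filter, the trend, the model or a v-erbA array changed, the estimate stayed the same, so the direction could not change. The call held in 396 cases and was lost in 245. For the 24 genes whose log2 change or p-value is given without a call, the direction held too and 44 cases passed the threshold. List medians without 1 array ran from -0.64 to -0.04 for hepatocyte markers and from 0.11 to 0.60 for cell cycle genes; these fits were chosen after seeing the data. The model's time term already sets RA and control of one time against each other. No paired analysis was possible because each group holds 1 array, so that replicate numbers cannot serve as a further block. Signals near the pooled median limit Rarb, Cyp26a1 and other dim genes. Causes were not tested.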
